A study of Mus musculus with 79 samples.

Results

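The kidney libraries of mice that breathed 6% or 21% oxygen at 2 times of day were used to ask whether the response to low oxygen depended on the time at which it was given. All 16 kidney libraries were taken, out of 79 libraries in the series, which also covers liver and lung of the mice in the light-dark cycle and liver in constant darkness. The mice were wild-type C57BL/6 animals aged 3 months, housed with lights on for 12 h and off for 12 h. For 4 h they were held in a sealed cage flushed with either 6% oxygen in nitrogen or synthetic air of 21% oxygen, and tissues were taken directly afterwards. The exposure ran from ZT4 to ZT8, in the light, or from ZT16 to ZT20, in the dark, where ZT counts hours from lights-on. This gave 4 groups of 4 libraries, lettered A to D, and the design text states that replicates are separate mice. The response to oxygen at 1 time is the log2 ratio of 6% over 21% oxygen. The phase difference is the response at ZT16-20 minus the response at ZT4-8, so a positive value means that the gene was pushed further up, or less far down, in the dark.

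The circadian clock of mammalian cells is a feedback loop in which the activators BMAL1 (encoded by Arntl), CLOCK and NPAS2 bind E-box sequences and switch on their own repressors, the PER and CRY proteins. REV-ERB receptors (Nr1d1, Nr1d2) repress Arntl, ROR receptors activate it, and the PAR bZIP factors DBP, TEF and HLF compete with NFIL3 for D-box sequences of output genes. In the kidney this clock gives daily rhythms to tubular transport and metabolism. Low oxygen stabilises HIF transcription factors, which are relatives of the clock activators and bind a related core sequence.

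The stretches of promoter that hold E-boxes or D-boxes are shown for 4 clock genes, since these are the elements through which the loop works. The phase difference passed the test for Ciart, Tef and Per3 and not for Cry1. They were read from the RefSeq windows of GRCm38.p6 (250 bases before to 50 after each annotated start) and are written 5′ to 3′ on the gene's own strand. Capitals mark CACGTG (the E-box) in Ciart, Tef and Cry1 and TTATGTAA (a D-box) in Per3. Ciart encodes a repressor of the BMAL1 complex, and its window on the minus strand at chr3:95882247-95882364 holds 3 E-boxes. The Per3 window lies on the minus strand at chr4:151044796-151044890, that of Tef on the plus strand at chr15:81802526-81802571, and that of Cry1 on the minus strand at chr10:85185089-85185134. Another annotated start of Tef also had CACGTG before it, at chr15:81811256-81811301, and that stretch is not printed. 
Ciart: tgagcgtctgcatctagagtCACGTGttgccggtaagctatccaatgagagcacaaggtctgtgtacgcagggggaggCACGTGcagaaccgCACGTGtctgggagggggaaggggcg 
Per3: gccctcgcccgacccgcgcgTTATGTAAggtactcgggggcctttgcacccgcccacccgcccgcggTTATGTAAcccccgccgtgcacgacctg 
Tef: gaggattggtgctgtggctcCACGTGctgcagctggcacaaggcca 
Cry1: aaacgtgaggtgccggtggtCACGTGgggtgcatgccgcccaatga 
Searched on both strands, CACGTG was in 7.15% and TTATGTAA in 0.938% of all 32851 RefSeq promoter windows. A window was found for 14 of the 16 clock genes tested below, and 4 of them held CACGTG (Per1, Cry1, Tef and Ciart), while Per3 alone held TTATGTAA. The binding motif AGGTCA of REV-ERB and ROR receptors was in 4 of the 14 (Arntl, Per1, Nr1d2 and Nfil3) and in 16.3% of all windows. Of the 28 genes with a window among the 40 whose response differed between the phases, 8 held CACGTG and 2 held TTATGTAA. A gene was counted if any of its windows matched, whereas the shares of all windows are per window, so the units differ. A match describes the letters of the window and is neither a bound site nor a cause.

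Total counts ran from 2148455 to 3913899 per library (median 3089111). Levels are given in counts-per-million (CPM), so that 1 CPM rests on about 2 to 4 reads. The tissue label was met by the markers: Slc34a1 and Miox of the proximal tubule, Umod of the loop of Henle and Aqp2 of the collecting duct were present in every library, at no less than 204 CPM each. Adrenal Cyp11a1 and Cyp11b1 were not listed, while adrenal Akr1b7 had 2.84 to 8.64 CPM and Star at most 1.89 CPM. Cfd, an adipocyte gene, was present at 6.31 to 155 CPM. Of hepatocyte genes, Alb had 10.2 to 64.9, Ttr 123 to 631 and Apoa1 at most 10.3 CPM. Of lung genes, Sftpc had at most 18.2, Scgb1a1 at most 20.8 and Ager at most 5.08 CPM. Libraries B and D of 21% oxygen at ZT4-8 stood apart from the other 14 in a multidimensional scaling plot (second dimension -0.95 and -1.04, against -0.25 to 0.57), and both lay below all other libraries in 1004 and above them in 558 of 10878 genes. For the genes described below whose phase difference passed, that difference or its adjusted p is therefore also given without these 2 libraries, while single responses include them. In whole tissue, fewer cells of a type and less RNA per cell cannot be told apart.

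The oxygen response differed between the phases in 40 of the 10878 genes tested (0.368%; edgeR quasi-likelihood test, adjusted p under 0.05), 25 with a positive (0.23%) and 15 with a negative phase difference (0.138%). DESeq2 split its 88 calls into 46 positive and 42 negative, limma-voom with quality weights its 496 into 169 and 327, and without libraries B and D 27 genes passed, 22 of them among the 40. Leaving out 1 library at a time gave 23 genes (without library D of 21% oxygen at ZT16-20), 25 (without D of 6% oxygen at ZT4-8) to 155 (without C of 21% oxygen at ZT4-8). At an unadjusted p under 0.05 there were 1081 genes. The responses themselves were broader: 574 genes passed at ZT4-8 (5.28%; 303 higher, 2.79%, and 271 lower, 2.49%, at 6% oxygen), and 286 without libraries B and D. At ZT16-20, 751 passed (6.9%; 374 higher, 3.44%, and 377 lower, 3.47%). Both tests were passed by 290 genes, which is 50.5% of those at ZT4-8 and 38.6% of those at ZT16-20. In 281 of these the response had the same sign at both times. The 9 with opposite signs were Aqp8, Arntl, Dbp, Ddc, Kcnk5, Npas2, Rdh10, Susd3 and Tspan4, and all 9 were among the 40. Since the phase difference is made of these same responses, their place among the 40 is no separate result.

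Among the 40 genes, 19 had a negative estimate at ZT4-8 and a positive one at ZT16-20, and 14 the reverse. Another 4 were estimated higher at both times and 3 lower at both. Members of the clock loop and its output factors made up 7 of the 40, from 16 such genes tested: Dbp, Tef, Ciart and Per3 with positive, and Nfil3, Npas2 and Arntl with negative phase differences. Beyond these, 9 more of the 40 belonged to other gene lists, and 32 of the 45 lists held none of them. List counts below are to be read beside the share of all genes with a phase difference past the threshold, 0.368%. For the responses these shares were 2.79% higher and 2.49% lower at ZT4-8, and 3.44% and 3.47% at ZT16-20.

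**Figure D1:**
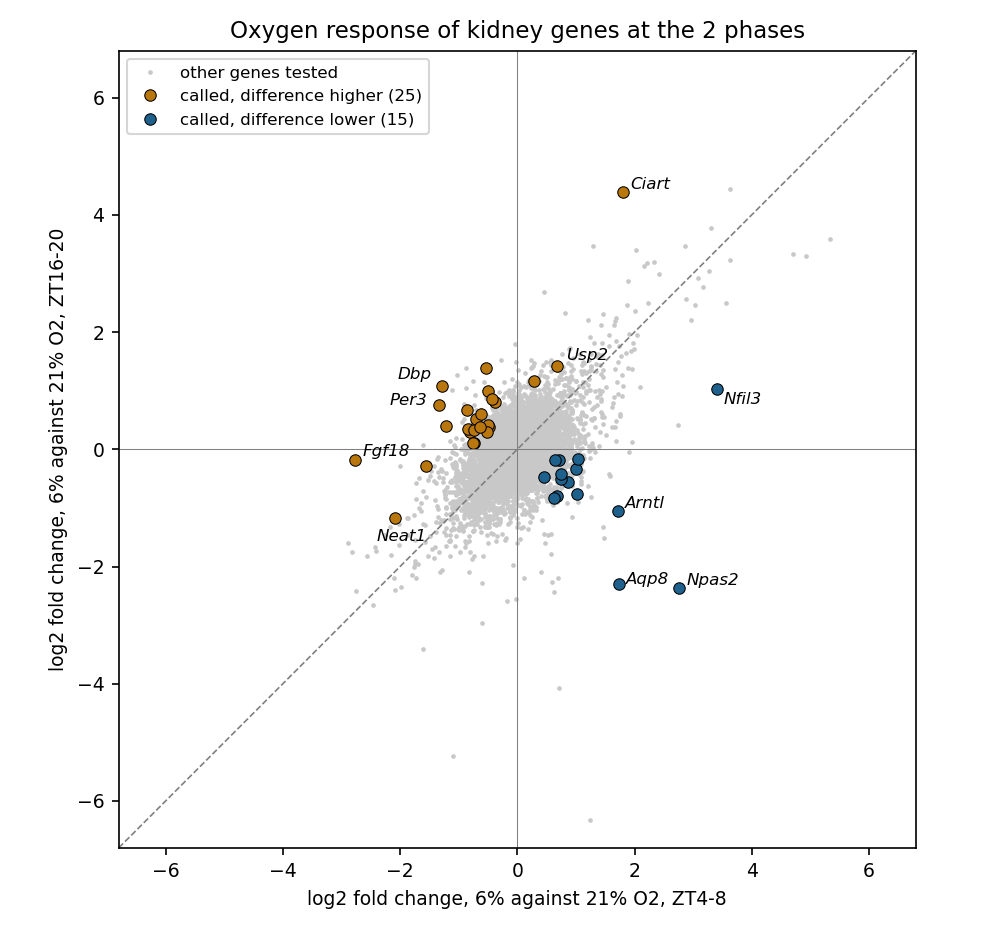
Log2 response to 6% over 21% oxygen at ZT16-20 (vertical axis) against that at ZT4-8 (horizontal axis) for each of the 10878 genes tested. Coloured points are the 40 genes with a phase difference past the adjusted threshold and the dashed line marks an equal response; Dbp, with -1.29 and 1.09, and Nfil3, with 3.40 and 1.03, lie off the line on either side.

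Dbp, the PAR bZIP activator of D-box genes (chromosome 7, 45705100 to 45710203, GRCm38.p6), had the smallest p of all genes. In 21% oxygen it stood at 270.2, 306, 215 and 327 CPM (libraries A to D) at ZT4-8 and at 14.1, 15.5, 12.8 and 14.8 CPM at ZT16-20. In 6% oxygen the levels were 153, 109, 99.2 and 94.8 CPM at ZT4-8 and 25.8, 27.1, 33.4 and 35.4 CPM at ZT16-20. Dbp thus fell from its high level in the light and rose from its low level in the dark, and the oxygen groups did not overlap at either time. The response was -1.29 ± 0.15 (SE) on the log2 scale at ZT4-8 and 1.09 ± 0.18 at ZT16-20, a phase difference of 2.38 ± 0.24 (adjusted p = 2.74e-05; 2.17 without libraries B and D).

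Tef, a second PAR bZIP factor (chromosome 15, 81802673 to 81826863), had a phase difference of the same sign on a smaller scale. Its levels in air were 276, 368, 257 and 365 CPM at ZT4-8 and 128, 155, 125 and 158 CPM at ZT16-20. At 6% oxygen they were 206, 248, 239 and 287 CPM and 270.5, 247, 241 and 229 CPM. At ZT4-8 the oxygen groups overlapped, and the response of -0.37 ± 0.13 did not pass the test (adjusted p = 0.122), whereas at ZT16-20 all 6% libraries lay above all air libraries, with a rise of 0.80 ± 0.14. The phase difference of 1.17 ± 0.19 passed (adjusted p = 0.00617, and 0.0305 without B and D). Hlf, the remaining PAR bZIP factor, fell at ZT4-8 (-0.54 ± 0.13), and its phase difference of 0.44 ± 0.18 did not pass (adjusted p = 0.409).

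Nfil3, which represses the D-box genes that Dbp activates (chromosome 13, 52967209 to 52982878), had a phase difference of the opposite sign. In air it was low in the light, at 3.40, 2.06, 5.11 and 2.31 CPM, and higher in the dark, at 29.4, 33.1, 28.9 and 38.9 CPM. At 6% oxygen it reached 32.2, 40.1, 31.9 and 32.8 CPM at ZT4-8 and 69.9, 65.00, 62.8 and 68.2 CPM at ZT16-20. Low oxygen raised it at both times with no overlap, and the 6% libraries of the light overlapped the air libraries of the dark. The rise was 3.40 ± 0.21 at ZT4-8 and 1.03 ± 0.16 at ZT16-20, so that the phase difference was -2.38 ± 0.27 (adjusted p = 7.87e-05; -1.94 without B and D). Of the 4 PAR bZIP and Nfil3 genes, 2 had a positive and 1 a negative phase difference past the threshold, against 0.368% of all genes.

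**Figure D2:**
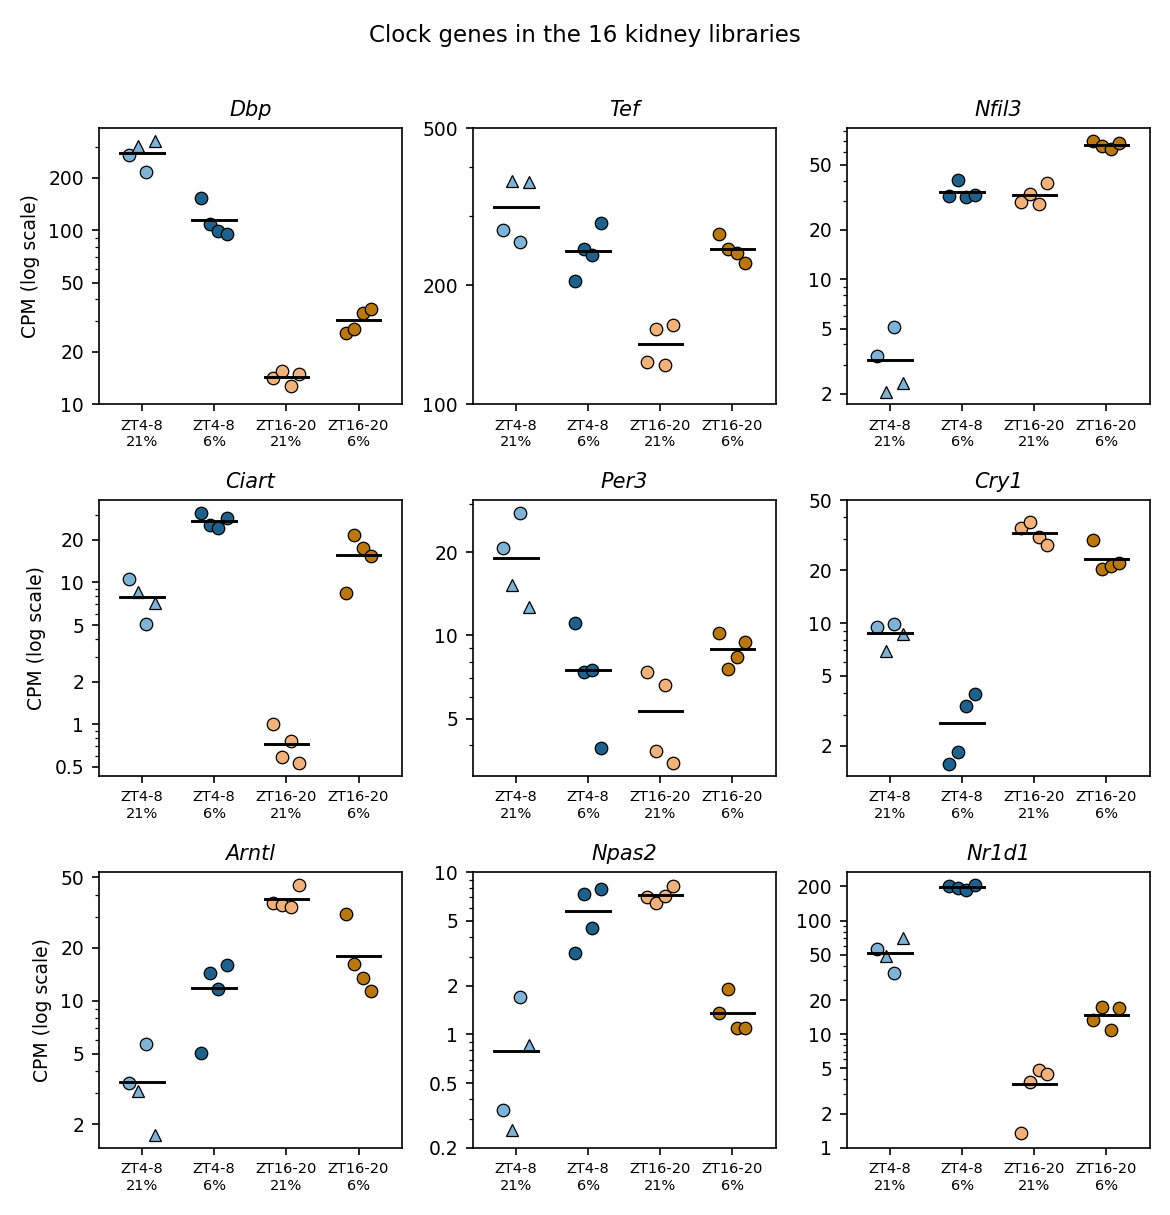
CPM of 9 clock genes in each of the 16 kidney libraries (log axis), in the order 21% and 6% oxygen at ZT4-8, then 21% and 6% oxygen at ZT16-20. Each point is a library, triangles are libraries B and D of 21% oxygen at ZT4-8, and the black bar is the group mean; Dbp goes down in the light and up in the dark, Arntl and Npas2 the other way, and Nr1d1 up at both times.

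Arntl, which encodes BMAL1 (chromosome 7, 113178471 to 113314126), and Npas2, a partner of BMAL1 (chromosome 1, 39193702 to 39363240), moved against Dbp at both times. In air Arntl stood at 3.40, 3.09, 5.67 and 1.73 CPM at ZT4-8 and 35.8, 34.8, 34.2 and 45.5 CPM at ZT16-20. At 6% oxygen the levels were 5.05, 14.3, 11.6 and 16.04 CPM at ZT4-8 and 31.2, 16.1, 13.4 and 11.3 CPM at ZT16-20. The low level of the light rose by 1.72 ± 0.41 with overlapping groups, and the high level of the dark fell, with a response of -1.06 ± 0.30 and no overlap. The phase difference of -2.78 ± 0.50 passed (adjusted p = 0.0154) but not without libraries B and D (-2.37, adjusted p = 0.145).

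Npas2 was measured at few reads, with 0.340, 0.258, 1.70 and 0.866 CPM in air and 3.16, 7.37, 4.51 and 7.84 CPM in 6% oxygen at ZT4-8. At ZT16-20 the levels were 7.03, 6.44, 7.15 and 8.20 CPM in air and 1.36, 1.89, 1.09 and 1.09 CPM in 6% oxygen. Neither time had overlapping oxygen groups, and the order of air and 6% oxygen was turned round between them. The responses were 2.76 ± 0.44 and -2.36 ± 0.39, and the phase difference of -5.12 ± 0.59 was the widest on the log2 scale among the 16 clock genes (adjusted p = 7.87e-05; -4.70 without B and D). Clock itself had at most 7 reads in any library and was not tested.

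Ciart (chromosome 3, 95878500 to 95882257), whose promoter window with 3 E-boxes is printed above, rose at both times. Its levels at ZT4-8 were 10.5, 8.50, 5.11 and 7.21 CPM in air and 30.95, 25.3, 24.1 and 28.5 CPM in 6% oxygen. The dark gave 1.00, 0.585, 0.766 and 0.529 CPM in air and 8.48, 21.5, 17.4 and 15.3 CPM in 6% oxygen. Both rises were free of overlap, and the one in the dark started from about 1 CPM or less. The log2 rise was 1.80 ± 0.24 at ZT4-8 and 4.39 ± 0.37 at ZT16-20, a phase difference of 2.59 ± 0.48 (adjusted p = 0.0154, and 0.0442 without B and D). It passed in 15 of the 16 fits that left out 1 library, with an adjusted p of up to 0.0575 (without library D of 21% oxygen at ZT16-20).

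Per3, a PER family member with the D-box window shown (chromosome 4, 150997018 to 151044707), fell in the light. It went from 20.8, 15.2, 27.8 and 12.7 CPM in air to 11.1, 7.37, 7.52 and 3.92 CPM in 6% oxygen at ZT4-8. Air libraries of ZT16-20 read 7.36, 3.80, 6.64 and 3.44 CPM, and 6% libraries 10.2, 7.57, 8.34 and 9.48 CPM. Groups did not overlap at either time, but the response at ZT16-20 of 0.75 ± 0.32 did not pass the test (adjusted p = 0.179). The phase difference was 2.08 ± 0.44 (adjusted p = 0.034, and 0.01 without B and D), and it passed in 6 of the 16 fits that left out 1 library, with an adjusted p of up to 0.0991 (without library B of 21% oxygen at ZT16-20). Of the 5 PER and CRY genes all had positive estimates of the phase difference, and Per3 alone passed.

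Other repressors responded to oxygen with no phase difference past the threshold. Per1, a PER gene that stress hormones also induce, rose by 1.56 ± 0.32 at ZT4-8 and 1.95 ± 0.32 at ZT16-20 (phase difference 0.39 ± 0.45, adjusted p = 0.808). Per2 fell at ZT4-8 (-0.80 ± 0.19) and had a response of -0.09 ± 0.17 at ZT16-20. Cry1 fell at ZT4-8, from 9.53, 6.96, 9.93 and 8.66 CPM in air to 1.58, 1.84, 3.38 and 3.92 CPM in 6% oxygen, with no overlap. At ZT16-20 it had 34.8, 37.4, 30.9 and 27.8 CPM in air and 29.9, 20.2, 21.04 and 21.9 CPM in 6% oxygen, and its phase difference was 1.19 ± 0.34 (adjusted p = 0.188). Cry2 rose at ZT16-20 (0.74 ± 0.14), against 0.19 ± 0.14 at ZT4-8, which did not pass. Bhlhe40, a repressor that competes for E-boxes, rose by 1.38 ± 0.17 and 1.62 ± 0.17.

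Nr1d1, which encodes REV-ERB alpha and represses Arntl (chromosome 11, 98767932 to 98775377), rose by nearly the same log2 amount in both phases. In the light it went from 56.8, 48.4, 34.6 and 69.8 CPM in air to 200.2, 195, 187 and 208 CPM in 6% oxygen. The values of the dark were 1.34, 3.80, 4.85 and 4.50 CPM in air and 13.2, 17.4, 10.9 and 17.1 CPM in 6% oxygen. No library overlapped at either time although the starting levels were far apart. The rises were 1.91 ± 0.19 and 1.97 ± 0.28, with a phase difference of 0.05 ± 0.29 (adjusted p = 0.969). Its relative Nr1d2 had -0.76 ± 0.34 and 1.17 ± 0.43 and a phase difference of 1.92 ± 0.55 (adjusted p = 0.191). None of the 3 REV-ERB and ROR genes tested passed for the phase difference.

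The same libraries show how far apart the 2 times of day were at each oxygen level. In 21% oxygen 119 genes differed between ZT16-20 and ZT4-8 (1.09%), and in 6% oxygen 54 did (0.496%). Without libraries B and D of the light these counts were 47 and 113. Of the 16 clock genes, 10 passed in air and 6 in 6% oxygen, and the size of the estimate was smaller in 6% oxygen for 11 of 16 (68.8%, against 50.1% of all genes tested). By construction the phase difference equals the time-of-day difference in 6% oxygen minus that in air, from the same libraries. For genes picked by their phase difference these values therefore restate it and are no separate result. For Dbp the dark minus light difference was -4.29 ± 0.18 in air and -1.91 ± 0.17 in 6% oxygen. Tef went from -1.16 ± 0.14 to 0.01 ± 0.14, and Ciart from -3.38 ± 0.40 to -0.80 ± 0.23, neither passing in 6% oxygen. Nfil3 was higher in the dark by 3.33 ± 0.21 in air and 0.96 ± 0.16 in 6% oxygen.

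Arntl had a dark minus light difference of 3.42 ± 0.36 in air and of 0.64 ± 0.34 in 6% oxygen (adjusted p = 0.484 for the latter). Npas2 was the 1 gene that passed in both with opposite signs, at 3.12 ± 0.41 in air and -2.003 ± 0.41 in 6% oxygen. Of the 11 genes that passed in both (9.24% of those in air and 20.4% of those in 6% oxygen), 10 kept their sign. Cry1 was no closer between the times in 6% oxygen, with 1.90 ± 0.20 in air and 3.09 ± 0.26 in 6% oxygen, and Nr1d1 had -3.80 ± 0.25 and -3.75 ± 0.22.

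**Figure D3:**
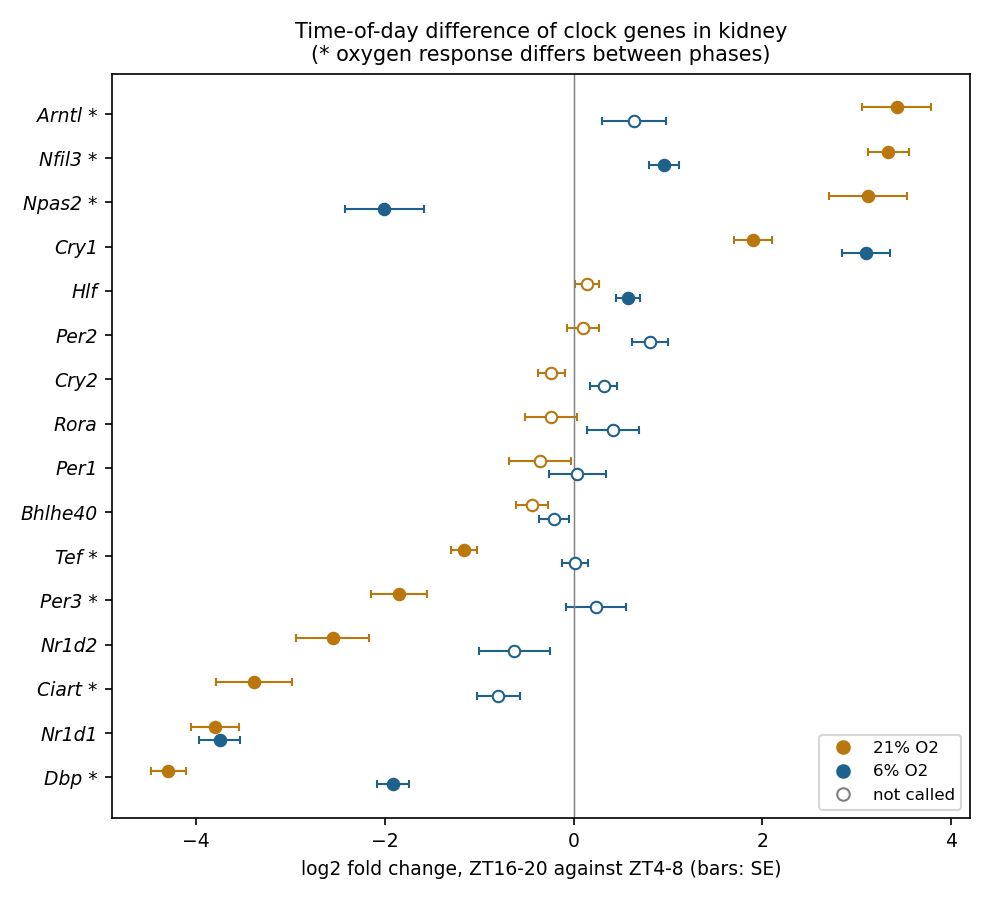
Log2 difference between ZT16-20 and ZT4-8 for the 16 clock genes tested, in 21% oxygen and in 6% oxygen, with SE. Filled points passed the adjusted threshold and an asterisk marks genes whose oxygen response differed between the phases; Dbp moved from -4.29 to -1.91 and Npas2 from 3.12 to -2.003, while Nr1d1 stayed near -3.80 and -3.75.

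Of 24 clock-controlled kidney genes tested, 2 had a positive phase difference past the threshold and none a negative one, against 0.23% and 0.138% of all genes. Their median was 0.33 against -0.01 over all genes. Tspan4, a tetraspanin of the cell membrane (chromosome 7, 141475236 to 141493427), had 124, 119.8, 84.8 and 132 CPM in air and 65.7, 49.3, 83.8 and 54.9 CPM in 6% oxygen at ZT4-8. For ZT16-20 the libraries gave 83.97, 82.2, 105 and 74.6 CPM in air and 109, 124, 135 and 184 CPM in 6% oxygen. It fell in the light and rose in the dark without overlap, and its phase difference was 1.53 ± 0.26 (adjusted p = 0.00651, and 0.037 without B and D). Usp2, a deubiquitinating enzyme that acts on clock proteins, rose by 0.68 ± 0.10 in the light and 1.43 ± 0.11 in the dark. Its phase difference of 0.75 ± 0.15 passed with an adjusted p of 0.0218, against 0.0503 without B and D. It passed in 10 of the 16 fits that left out 1 library, with an adjusted p of up to 0.0664 (without library D of 6% oxygen at ZT4-8). Alas1, the first enzyme of haem synthesis, had a phase difference of 1.26 ± 0.28 that did not pass (adjusted p = 0.057), with a rise of 0.81 ± 0.20 at ZT16-20.

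Genes of tubular transport held 1 gene with a phase difference past the threshold. It was 1 of 24 in the proximal tubule list, whose median phase difference was 0.07. That gene, Kcnk5, is a background potassium channel of the proximal tubule (chromosome 14, 20140057 to 20181782). It stood at 170.5, 196, 205 and 171 CPM in air and 98.9, 120.3, 111 and 124 CPM in 6% oxygen at ZT4-8. Libraries from the dark had 95.3, 93.6, 112 and 93.4 CPM in air and 112, 162, 116 and 177 CPM in 6% oxygen. It fell without overlap in the light, and in the dark, where library C of air nearly touched the 6% group, it rose (-0.71 ± 0.14 and 0.52 ± 0.14). The phase difference was 1.23 ± 0.20 (adjusted p = 0.00599, and 0.0101 without B and D). Aqp1, the water channel of the same segment, fell at ZT4-8 (-0.50 ± 0.10) and had 0.13 ± 0.10 at ZT16-20, but the phase difference of 0.63 ± 0.15 did not pass (adjusted p = 0.0651).

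None of 20 loop and distal tubule genes and none of 21 collecting duct genes passed for the phase difference. Aqp2, the vasopressin-regulated water channel, rose in the dark, where 6% libraries had 586, 564, 718 and 487 CPM and air libraries 295, 347, 204 and 319.9 CPM with no overlap. In the light they had 483, 224, 411 and 395 CPM and 397, 396, 346 and 457 CPM, which overlapped. The rise was 1.01 ± 0.19 and the phase difference 1.09 ± 0.27 (adjusted p = 0.11). Scnn1b and Scnn1a, subunits of the epithelial sodium channel, likewise rose at ZT16-20 (0.96 ± 0.21 and 0.58 ± 0.16) with phase differences that did not pass. The summed level of the 22 collecting duct genes was higher in 6% oxygen at both times with no overlap, at 2716 to 2985 against 2361 to 2712 CPM in the light and 3466 to 4337 against 2794 to 2948 CPM in the dark (exact two-sided permutation p = 0.0286, the smallest possible with 4 against 4, adjusted to 0.203 over 64 tests). In the light the lowest air sums were those of libraries B and D, 2397 and 2361 CPM, against 2513 and 2712 CPM in A and C. Libraries B and D also had the highest summed proximal tubule genes of all 16 libraries, at 22370 and 22249 CPM.

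Susd3, a membrane protein with a sushi domain (chromosome 13, 49230511 to 49248706), was the gene outside the clock with a usual symbol and the smallest p. It had 162, 214, 116 and 177 CPM in air and 112, 119, 123 and 118 CPM in 6% oxygen at ZT4-8. At ZT16-20 the levels were 94.01, 104, 84.02 and 80.2 CPM in air and 170.4, 189, 188 and 172 CPM in 6% oxygen. The groups overlapped in the light, and in the dark every 6% library was above every air library. The responses were -0.50 ± 0.14 and 0.99 ± 0.14, with a phase difference of 1.49 ± 0.20 (adjusted p = 0.000573, and 0.00215 without B and D).

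Protein quality control in the cytosol and the endoplasmic reticulum gave Hspa8 and Herpud1. Hspa8, the constitutive cytosolic chaperone HSC70 (chromosome 9, 40801276 to 40805202), went from 2218, 2613, 2231 and 2677 CPM in air to 1483, 1588, 1019.5 and 1331 CPM in 6% oxygen in the light. The dark gave 1526, 1752, 1981 and 1772 CPM in air and 2737, 1939, 1906 and 2307 CPM in 6% oxygen. It fell in the light with no overlap, while the groups of the dark overlapped. The responses were -0.85 ± 0.14 and 0.34 ± 0.14 and the phase difference 1.18 ± 0.20 (adjusted p = 0.00651; 1.06 without B and D, adjusted p = 0.0326). Reads of Hspa8 may be shared with its processed pseudogenes. In the list of heat shock and cold-inducible genes it was 1 of 20, with a list median of 0.23. The inducible Hspa1a (0.87 ± 0.20, adjusted p = 0.0709) and the cold-inducible Cirbp (0.99 ± 0.28, adjusted p = 0.191) did not pass. Without B and D, 3 of the 20 genes in the list passed with positive phase differences. Hspa1a was then among those that passed (1.03, adjusted p = 0.0384).

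Herpud1, a membrane component of endoplasmic reticulum-associated degradation (chromosome 8, 94386429 to 94395371), rose at ZT16-20. Its levels at ZT4-8 were 683, 656, 559 and 598 CPM in air and 725, 735, 733 and 838 CPM in 6% oxygen. Air libraries of ZT16-20 read 495, 411, 505 and 510.1 CPM, and 6% libraries 1054, 1071, 1085 and 1100.05 CPM. The groups did not overlap at either time, but the response at ZT4-8 of 0.28 ± 0.10 did not pass (adjusted p = 0.129), while that at ZT16-20 was 1.16 ± 0.10. The phase difference was 0.88 ± 0.15 (adjusted p = 0.00617, and 0.0207 without B and D). It was the 1 gene of 16 in the unfolded protein response list to pass, and the list's median was -0.16. Hsp90b1, a chaperone of the same compartment, fell in the dark (-0.63 ± 0.15) with a phase difference of -0.68 ± 0.22 that did not pass.

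Neat1, the noncoding RNA that builds paraspeckles (chromosome 19, 5824708 to 5845480), went from 650.3, 749, 637 and 611 CPM in air to 159, 136, 153 and 171 CPM in 6% oxygen at ZT4-8. The values of the dark were 337, 278, 252 and 318 CPM in air and 132, 116, 149.8 and 129 CPM in 6% oxygen. Neat1 fell at both times without overlap and ended in overlapping ranges. The responses were -2.09 ± 0.12 and -1.17 ± 0.12, with a phase difference of 0.93 ± 0.17 (adjusted p = 0.0136, and 0.0362 without B and D). Fgf18, a secreted fibroblast growth factor (chromosome 11, 33116970 to 33147400), had 34.03, 35.3, 48.2 and 32.03 CPM in air and 4.42, 11.5, 4.13 and 2.85 CPM in 6% oxygen in the light. For ZT16-20 the libraries gave 11.7, 6.73, 5.87 and 14.02 CPM in air and 10.2, 5.68, 7.62 and 10.2 CPM in 6% oxygen. Fgf18 was thus high in 1 group of the 4, air in the light, and the phase difference was 2.58 ± 0.48 (adjusted p = 0.0154, and 0.0305 without B and D).

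Aacs, which activates acetoacetate for lipid synthesis (chromosome 5, 125475873 to 125517405), had 139.9, 143, 214 and 150.1 CPM in air and 104, 81.6, 97.7 and 86.6 CPM in 6% oxygen at ZT4-8. Libraries from the dark had 143, 138, 116 and 159 CPM in air and 173, 164, 183 and 163 CPM in 6% oxygen. Aacs fell in the light, and in the dark the 6% libraries lay above the air libraries without the response passing the test (-0.80 ± 0.14 and 0.30 ± 0.14). Its phase difference was 1.10 ± 0.19 (adjusted p = 0.0103; 1.23 without B and D, adjusted p = 0.0094). Ak4, a mitochondrial adenylate kinase, fell by 0.73 ± 0.11 in the light and had 0.10 ± 0.11 in the dark. Its phase difference of 0.83 ± 0.16 (adjusted p = 0.019, and 0.0326 without B and D) passed in 15 of the 16 fits that left out 1 library, with an adjusted p of up to 0.0616 (without library D of 6% oxygen at ZT4-8). Tnfaip8, a regulator of cell death, fell by 1.56 ± 0.17 in the light (phase difference 1.27 ± 0.24, and 1.28 without B and D). Angptl7, a secreted angiopoietin-like protein, rose in the dark by 1.38 ± 0.25 (phase difference 1.92 ± 0.36), and its adjusted p went from 0.0154 to 0.0974 without B and D.

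Clpx, the unfoldase subunit of a mitochondrial protease (chromosome 9, 65294251 to 65330658), led the genes with a negative phase difference outside the clock. It went from 106, 86.04, 110.3 and 71.3 CPM in air to 186, 206, 181 and 195 CPM in 6% oxygen in the light. At ZT16-20 the levels were 169, 190.2, 174 and 178 CPM in air and 151, 172, 175 and 136 CPM in 6% oxygen. It rose in the light with no overlap, and the groups of the dark overlapped. The responses were 1.04 ± 0.13 and -0.17 ± 0.13 and the phase difference -1.21 ± 0.18 (adjusted p = 0.0024, and 0.01 without B and D).

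Ddc, the decarboxylase that makes dopamine in proximal tubule cells (chromosome 11, 11814101 to 11898144), had responses of opposite sign. Its levels at ZT4-8 were 86.8, 53.3, 86.8 and 51.9 CPM in air and 100.1, 128, 111 and 91.3 CPM in 6% oxygen. The dark gave 92.00, 83.97, 101 and 107 CPM in air and 67.2, 51.4, 48.6 and 49.2 CPM in 6% oxygen. It rose in the light and fell in the dark without overlap (0.63 ± 0.17 and -0.83 ± 0.17), and the phase difference was -1.45 ± 0.24 (adjusted p = 0.00651, and 0.0208 without B and D).

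Arrdc3, an alpha-arrestin of the list of FOXO targets and mTORC1 inhibitors, had 30.97, 23.96, 33.2 and 13.9 CPM in air and 49.9, 44.2, 49.2 and 42.8 CPM in 6% oxygen at ZT4-8. Air libraries of ZT16-20 read 84.97, 80.7, 64.6 and 82.3 CPM, and 6% libraries 51.9, 57.4, 56.6 and 45.2 CPM. No library overlapped at either time, and the order of the oxygen groups was turned round, although the response in the dark of -0.56 ± 0.18 did not pass. The phase difference was -1.44 ± 0.26 (adjusted p = 0.0136; -1.10 without B and D, adjusted p = 0.0227), and it was the 1 gene of 18 in that list to pass. Rdh10, a retinol dehydrogenase, rose in the light (0.45 ± 0.13) and fell in the dark (-0.47 ± 0.13), with a phase difference of -0.92 ± 0.18 whose adjusted p of 0.0244 became 0.0993 without B and D. It passed in 8 of the 16 fits that left out 1 library, with an adjusted p of up to 0.0772 (without library B of 21% oxygen at ZT16-20). Avpr1a, a vasopressin receptor, rose by 1.00 ± 0.20 in the light (phase difference -1.35 ± 0.27, adjusted p = 0.023; -1.49 without B and D, adjusted p = 0.0383), and its phase difference passed in 9 of the 16 fits that left out 1 library, with an adjusted p of up to 0.0639 (without library D of 21% oxygen at ZT4-8). Aqp8, a water channel below 5 CPM on average that was picked after its values were seen, had 1.74 ± 0.46 and -2.30 ± 0.63, and its phase difference of -4.04 ± 0.78 no longer passed without B and D (adjusted p = 0.0505). It passed in 14 of the 16 fits that left out 1 library, with an adjusted p of up to 0.0608 (without library D of 21% oxygen at ZT16-20).

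Col1a1, the chain of fibrillar collagen I made by fibroblasts, had 40.2, 40.4, 47.7 and 53.7 CPM in air and 80.9, 74.2, 65.8 and 83.8 CPM in 6% oxygen at ZT4-8. The values of the dark were 64.2, 61.4, 96.02 and 59.3 CPM in air and 50.9, 47.6, 37.7 and 61.6 CPM in 6% oxygen. It rose in the light with no overlap, and the groups of the dark overlapped. The phase difference was -1.25 ± 0.24 (adjusted p = 0.0178, and 0.0326 without B and D). It passed in 15 of the 16 fits that left out 1 library, with an adjusted p of up to 0.0512 (without library D of 6% oxygen at ZT4-8). It was the 1 of 21 matrix genes to pass, 5 of the 21 had a positive estimate against 49.1% of all genes, and the list's median was -0.29. Col5a1 and Col4a2, chains of other collagens, rose in the light (0.71 ± 0.21 and 0.48 ± 0.12) without a phase difference past the threshold. The summed fibroblast and mural markers, which include Col1a1, were 225 to 252 CPM in air and 232 to 296 CPM in 6% oxygen in the light, and 224 to 315 and 207 to 289 CPM in the dark. Their part in the result was not tested.

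**Figure D4:**
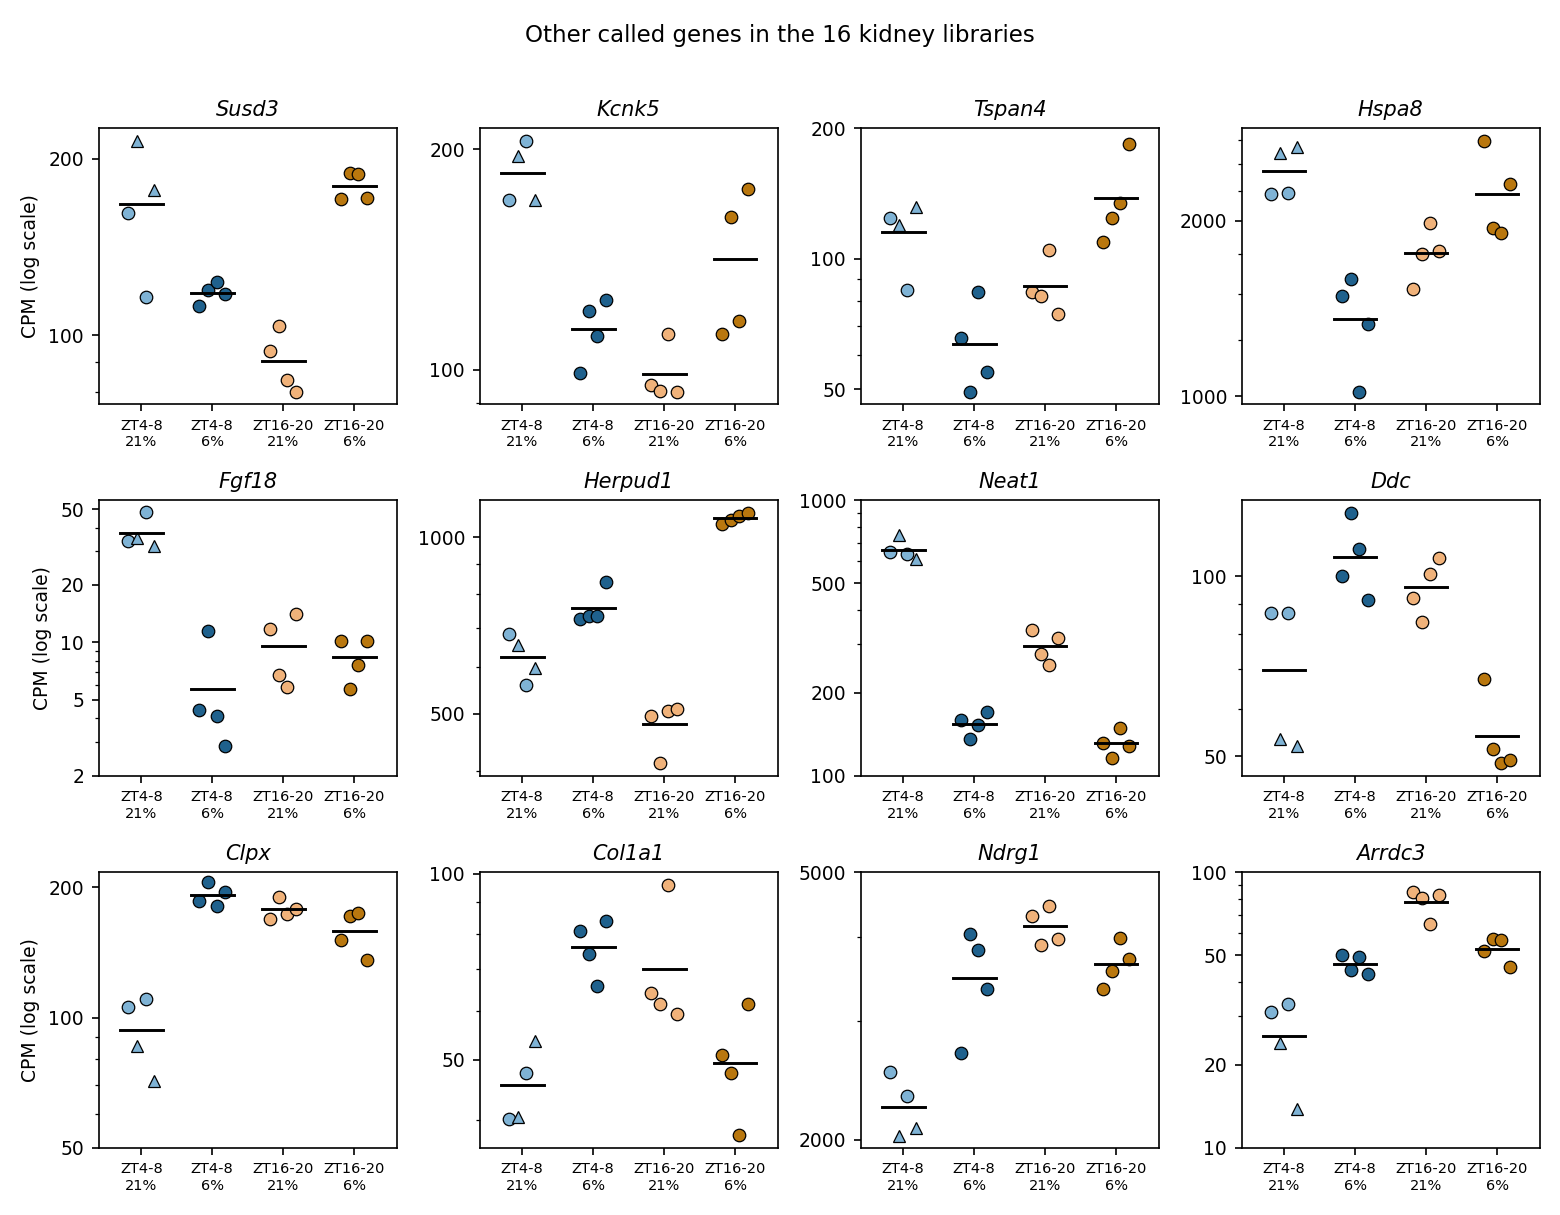
CPM of 12 genes outside the clock loop in each of the 16 kidney libraries (log axis), in the order 21% and 6% oxygen at ZT4-8, then at ZT16-20. Each point is a library, triangles are libraries B and D of 21% oxygen at ZT4-8, and the black bar is the group mean; Susd3, Kcnk5 and Tspan4 go down in the light and up in the dark, and Ddc the other way.

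In the lists of HIF subunits and oxygen sensors, of HIF targets and of glycolysis, Ndrg1 alone had a phase difference past the threshold. HIF targets outside these lists were not counted. Ankrd37, a HIF target, rose by 3.64 ± 0.33 at ZT4-8 and 4.44 ± 0.33 at ZT16-20 (phase difference 0.80 ± 0.49, adjusted p = 0.615). Its libraries had 5.10, 4.89, 3.12 and 6.93 CPM in air and 90.6, 31.8, 63.5 and 62.7 CPM in 6% oxygen at ZT4-8, and 4.35, 2.63, 6.38 and 3.70 CPM and 58.4, 109.8, 109.6 and 98.8 CPM at ZT16-20. Every 6% library was above every air library. Ddit4, which restrains mTORC1, rose by 3.30 ± 0.37 and 3.78 ± 0.39, and Cdkn1a, the cell cycle inhibitor p21, by 3.62 ± 0.18 and 3.23 ± 0.17. Their phase differences of 0.48 ± 0.51 and -0.39 ± 0.24 did not pass. Hif1a and Vegfa passed in neither phase, with responses of 0.25 and 0.24, and -0.04 and 0.05.

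Of 27 HIF targets outside glycolysis, 7 rose in the light and 7 in the dark, against 2.79% and 3.44% of all genes, and none fell. A phase difference past the threshold was found for 1 of them, against 0.368% of all genes. That gene was Ndrg1, a stress-responsive gene that HIF induces (chromosome 15, 66929318 to 66969641). In the light it went from 2524, 2024, 2325 and 2079 CPM in air to 2687, 4051, 3826 and 3353 CPM in 6% oxygen. For ZT16-20 the libraries gave 4309, 3891, 4457 and 3981 CPM in air and 3349, 3559.7, 3990.2 and 3715 CPM in 6% oxygen. It rose in the light without overlap, and in the dark, where the air level was higher than in the light, the groups overlapped. The phase difference was -0.82 ± 0.17 (adjusted p = 0.0301), did not pass without B and D (-0.71, adjusted p = 0.19), and passed in 4 of the 16 fits that left out 1 library, with an adjusted p of up to 0.0843 (without library A of 21% oxygen at ZT16-20). None of 9 HIF subunit and oxygen sensor genes had a phase difference past the threshold. Egln3, a HIF hydroxylase, rose in the dark (0.78 ± 0.21) with a phase difference of 0.53 ± 0.29 that did not pass.

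Gapdh, a glycolytic enzyme, fell into a low and a high level. It stood at 6.13, 9.27, 4.54 and 187 CPM in air and 235, 4.61, 3.76 and 243 CPM in 6% oxygen at ZT4-8, and at 311, 316, 317 and 286 CPM and 3.73, 3.79, 3.99 and 3.64 CPM at ZT16-20. Libraries were either below 9.28 or above 187 CPM, and both kinds occurred within each group of the light, while air libraries of the dark were all high and 6% libraries all low. The phase difference of -7.57 ± 2.05 did not pass (adjusted p = 0.215). Gapdh has many near-identical pseudogenes, between which the reads could be split. None of the 14 genes of glycolysis and lactate export passed, and the list's median was 0.09.

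Immediate early genes, which answer many kinds of stress, rose at both times: 16 of 18 passed in the light and 16 in the dark, none fell, and none had a phase difference past the threshold (list median 0.25). Over all genes tested, 2.79% rose in the light and 3.44% in the dark. Junb rose by 1.67 ± 0.14 and 2.19 ± 0.15, and Maff by 2.22 ± 0.24 and 3.19 ± 0.27. Of 18 glucocorticoid-induced genes, 11 rose and 1 fell in the light and 12 rose in the dark, again with no phase difference past the threshold. Fkbp5, a co-chaperone of the glucocorticoid receptor, had 190.2, 239, 168 and 192 CPM in air and 212, 196, 194 and 212 CPM in 6% oxygen in the light, which overlapped. In the dark it had 169, 231, 155 and 153 CPM and 344, 358, 353 and 274 CPM, with no overlap. Its response passed in the dark alone (0.91 ± 0.14), but the phase difference of 0.86 ± 0.20 did not pass (adjusted p = 0.057). The metallothionein Mt2 rose by 1.42 ± 0.16 and 2.12 ± 0.16.

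Other metabolic lists had no gene past the threshold for the phase difference. Srebf1, the activator of fatty acid synthesis, rose in the dark (1.43 ± 0.16) and had a phase difference of 1.00 ± 0.22 (adjusted p = 0.0504). Scd2, a fatty acid desaturase, rose at both times (0.53 ± 0.10 and 1.11 ± 0.10; phase difference 0.59 ± 0.14). Cyp24a1, which inactivates vitamin D, rose in the dark from 55.2, 45.6, 98.8 and 49.2 CPM to 187, 155, 273 and 251 CPM with no overlap, while in the light it had 165, 282, 155 and 235 CPM in air and 238, 141, 259 and 175 CPM in 6% oxygen. Its phase difference of 1.83 ± 0.39 did not pass (adjusted p = 0.0542). G6pc, which releases glucose from gluconeogenesis, fell in the dark (-0.96 ± 0.17; phase difference -0.83 ± 0.23). Of 46 nuclear subunits of oxidative phosphorylation none passed, 12 had a positive estimate, and the median was -0.14.

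The lists of the integrated stress response and of splicing regulators moved with oxygen but held no gene with a phase difference past the threshold. Of 13 genes of the integrated stress response 3 rose in the light and 4 in the dark, against 2.79% and 3.44% of all genes. Gdf15, a secreted stress cytokine, rose by 0.88 ± 0.22 and 1.70 ± 0.22, and Chac1, which degrades glutathione, rose in the dark (2.68 ± 0.46) with a phase difference of 2.23 ± 0.65 (adjusted p = 0.197). Of 20 splicing regulators, 1 rose and 5 fell in the light and 2 rose and 6 fell in the dark. Of all genes, 2.49% fell in the light and 3.47% in the dark. Srsf5, an SR protein, rose at both times (0.47 ± 0.10 and 0.84 ± 0.10), while Luc7l3, a spliceosome-associated protein, fell in the dark (-1.01 ± 0.19; phase difference -0.93 ± 0.27). Rpph1, the RNA of ribonuclease P, had the steepest rise of the nuclear noncoding RNAs, from 5.44, 1.03, 3.40 and 2.02 CPM in air to 122, 146, 94.7 and 108 CPM in 6% oxygen in the light. The dark gave 8.70, 3.22, 5.87 and 4.23 CPM in air and 82.5, 74.5, 44.99 and 61.96 CPM in 6% oxygen. All 6% libraries were above all air libraries, and the phase difference of -1.75 ± 0.47 did not pass (adjusted p = 0.162). Cirbp, named above, likewise rose at both times (1.89 ± 0.20 and 2.87 ± 0.21). Of 47 cytosolic ribosomal protein genes none passed in any of these tests, and Rps9 had the smallest p among them, with a phase difference of 1.17 ± 0.26 (adjusted p = 0.0504). Rps9 reads could be shared with its pseudogenes.

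Adipocyte markers varied between libraries and with the groups. All 9 tested had a negative estimate of the phase difference, with a median of -2.09, and none passed. Their summed level was 451 to 764 CPM in air and 557 to 1023 CPM in 6% oxygen in the light. In the dark it was 436 to 1041 CPM in air and 213 to 320.0 CPM in 6% oxygen. The last group lay below all others without overlap (exact two-sided permutation p = 0.0286 against air in the dark, adjusted to 0.203). Fabp4, a fatty acid carrier of adipocytes, had -2.09 ± 0.61 and Ucp1, the uncoupling protein of brown fat, -4.14 ± 1.54. Lists for podocytes, endothelium, macrophages, neutrophils, lymphocytes, red cells, adrenal gland, liver and lung cells held no gene with a phase difference past the threshold. The genes tested in these lists numbered 9, 16, 10, 1, 2, 3, 1, 7 and 3, in that order. With 0.368% of all genes past the threshold, an empty list of so few genes says little about its cells. Red cell markers summed to 126 to 156 CPM in 6% oxygen in the light, below the 176 to 217 CPM of air (exact two-sided permutation p = 0.0286, adjusted to 0.203). That sum rests on 4 of 8 marker genes, since the globin genes Hba-a1, Hba-a2, Hbb-bs and Hbb-bt had no counts listed. In the lung list the level was set by Napsa, which proximal tubules also express. What part these cells had in the results was not tested.

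The phase difference of kidney was tested against that of liver and of lung from the light-dark mice, in joint fits without a block for the mouse, although the design text says that the 3 tissues came from each mouse. It differed from liver in 34 of 10451 genes (0.325%) and from lung in 3 of 11679 (0.0257%), and at an unadjusted p under 0.05 in 874 and 665. Of the kidney's 40 genes, 37 were tested against liver and 1 differed, and 38 were tested against lung and 2 differed. For Dbp the phase difference was 2.39 ± 0.39 in kidney and 3.94 ± 0.40 in liver, and in the lung fit 2.40 ± 0.27 and 2.70 ± 0.28, with adjusted p of 0.369 and 0.94 for the contrast between tissues. Ciart had 2.61 ± 0.46 in kidney and -0.01 ± 0.30 in lung, and that contrast did not pass either (adjusted p = 0.0795).

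Aacs was the gene of the 40 that differed from liver, and the contrast was no longer past the threshold in 6 of 21 alternative settings. In liver it had 75.7, 43.1, 74.01 and 63.9 CPM in air and 22.1, 36.7, 39.4 and 18.4 CPM in 6% oxygen in the light. Libraries from the dark had 13.5, 13.5, 15.8 and 24.8 CPM in air and 54.99, 74.6, 57.7 and 53.1 CPM in 6% oxygen. Liver groups did not overlap at either time, and the dark response pointed up, as in kidney. The liver phase difference of 2.98 ± 0.29 was the wider one, and kidney minus liver was -1.87 ± 0.40 (adjusted p = 0.0192).

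Other contrasts with liver came from genes with no phase difference past the threshold in kidney. Cdkn1a was higher in 6% oxygen at both times in kidney and liver, without overlap, and its air level was higher in the dark than in the light in both tissues. Air libraries of kidney had 25.1, 29.5, 38.8 and 28.05 CPM in the dark and 10.2, 14.7, 17.9 and 14.1 CPM in the light, and those of liver 64.8, 75.03, 117 and 74.6 CPM in the dark and 6.58, 14.1, 10.6 and 7.22 CPM in the light. Its phase difference was -0.38 ± 0.28 in kidney and -2.94 ± 0.28 in liver (adjusted p of the contrast 0.000784). Bok, a BCL2 family member, had 79.95, 62.6, 68.95 and 64.03 CPM in air and 74.7, 72.9, 68.9 and 59.4 CPM in 6% oxygen in the dark in kidney. In liver it had 56.8, 42.1, 55.1 and 60.5 CPM in air and 11.9, 12.5, 9.97 and 12.8 CPM in 6% oxygen at that time. The kidney groups overlapped, the liver groups were far apart, and kidney minus liver was 2.37 ± 0.31 (adjusted p = 4.06e-05). Slc16a12, a creatine and monocarboxylate transporter, and Elovl6, a fatty acid elongase, had positive phase differences in liver (2.14 ± 0.31 and 2.14 ± 0.29) and kidney minus liver contrasts of -2.53 ± 0.42 and -2.76 ± 0.51.

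Against lung, Ndrg1 differed by -1.55 ± 0.25 (adjusted p = 0.00473). In lung it had 59.5, 81.5, 74.5 and 56.1 CPM in air and 101, 83.9, 89.6 and 91.4 CPM in 6% oxygen in the light. At ZT16-20 the levels were 41.00, 46.1, 41.6 and 46.3 CPM in air and 98.2, 109, 101 and 84.99 CPM in 6% oxygen. Lung Ndrg1 was thus higher in 6% oxygen at both times, and the wider gap was in the dark, where the kidney groups overlapped. Fgf18 in lung had 29.5, 30.9, 40.1 and 39.9 CPM in air and 33.3, 46.7, 38.6 and 32.6 CPM in 6% oxygen in the light, and 28.7, 30.7, 25.5 and 36.3 CPM and 30.6, 34.3, 29.3 and 31.5 CPM in the dark. Lung groups overlapped at both times, and the contrast with kidney was 2.64 ± 0.50 (adjusted p = 0.0385). Rbp4, the plasma carrier of retinol, had -1.74 ± 0.35 in kidney and 0.30 ± 0.21 in lung (adjusted p of the contrast 0.0494). The shared letter within a group was then taken as the mouse, which the labels do not state, and used as a block. With it 1 gene passed against lung: Fgf18 (adjusted p = 0.0231), while Ndrg1 had 0.06 and Rbp4 0.109, and against liver 33 passed. Of 21 alternative settings the contrast was no longer past the threshold in 11 for Fgf18, 17 for Rbp4 and 2 for Ndrg1. No gene passed against lung in edgeR once the kidney and lung libraries that stood apart were left out, where 511 of 11828 genes had an unadjusted p under 0.05. DESeq2 was run with all libraries only, and called 16.

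**Figure D5:**
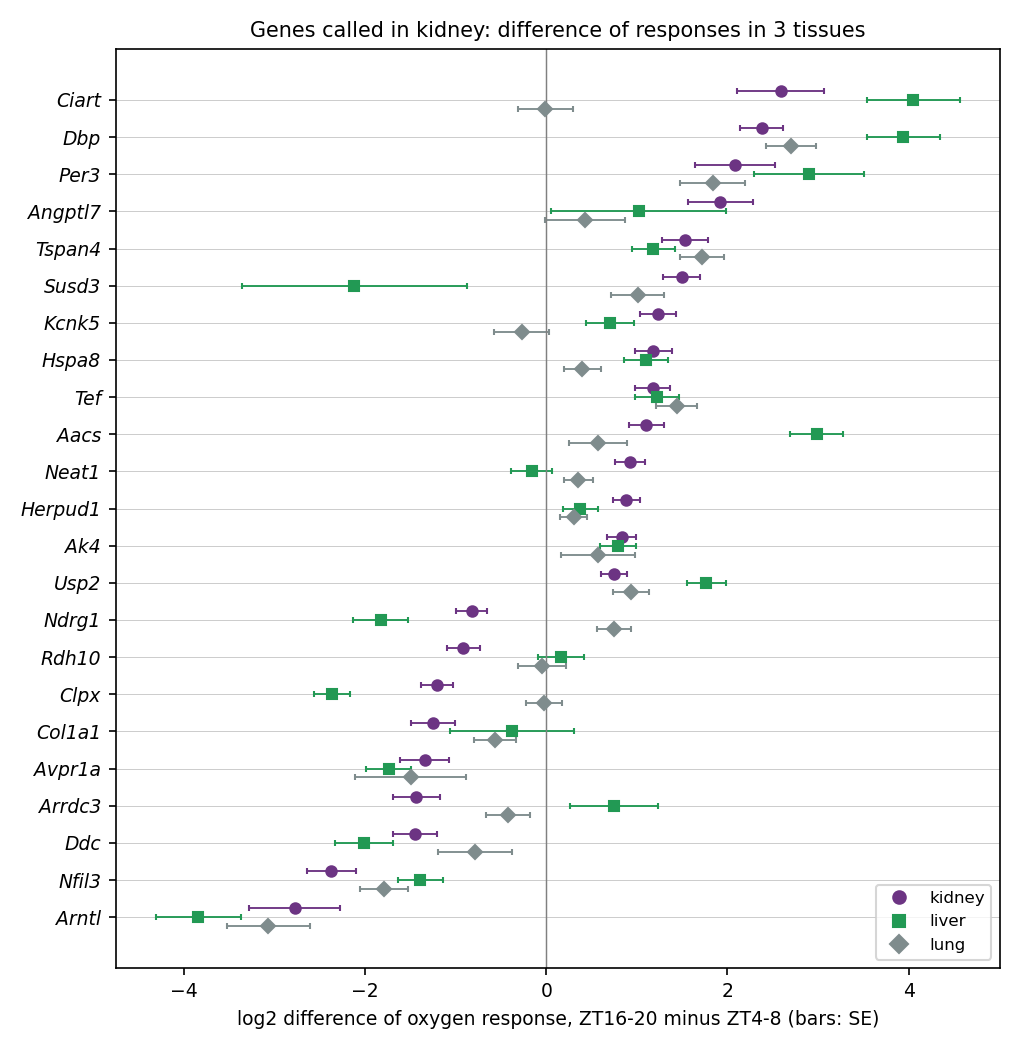
Phase difference of the oxygen response (log2, with SE) in kidney, liver and lung for 23 genes of the kidney's 40. Aacs lies further to the positive side in liver, and Ndrg1 differs between kidney and lung. Fgf18 was not tested against liver and is not drawn.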

How the data were processed

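The kidney table holds raw read counts per gene symbol as the authors deposited it, one column per library. Per the labels' protocols, tissue was snap-frozen, cDNA amounts were evened out by qPCR of actin B, and pooled cDNA was amplified linearly by in vitro transcription before sequencing. The build mm10 and the tools HTSeq, STAR, cutadapt and bcl2fastq appear in the submitters' processing notes. What is not given in the sources used here is the annotation, any tool version and the strand mode, and hence a gene and an antisense partner cannot be told apart. Amplification copies are not independent molecules.

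All 16 kidney libraries were fitted together in edgeR 4.0.16 (R 4.3.3) with 1 mean per group, TMM scaling, filterByExpr (minimum count 10, minimum total 15) and robust quasi-likelihood tests. This left 10878 of 12921 symbols. P-values were Benjamini-Hochberg adjusted over all genes tested, with 0.05 as the threshold, and the SE is the size of the log2 value divided by the square root of the F statistic. Tissues were compared in joint edgeR fits of 32 libraries. CPM values use TMM-scaled library sizes. Marker sums were compared by exact two-sided permutation of 4 against 4 libraries, adjusted over 64 tests. Positions and promoter windows come from RefSeq (GRCm38.p6). On simulated counts of 10730 genes the phase difference test recovered 43 of 100 genes changed by 1 log2 unit and 89 of 100 changed by 2, with 8 false calls. On 10257 genes the kidney minus liver test recovered 11 and 68 of 100, with 6 false calls.

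Alternatives were RLE scaling, no filter, DESeq2 1.42.0, limma 3.58.1 (voom with quality weights), the replicate letter as a block and leaving out each library. Leaving out the libraries that stood apart was added after the data were seen. Named were up to 14 genes in each direction by smallest p among called genes of at least 5 CPM on average with no placeholder symbol, all clock genes, up to 4 genes of each other list by smallest p, Hif1a, Vegfa, Ddit4, Cdkn1a, Ankrd37 and Pck1, and up to 6 genes in each direction of the tissue contrasts. The genes and the 45 lists were chosen with earlier results of these data known. One gene is not reported here, and the counts over lists leave it out. The design text ties the 3 tissues to each mouse, but the labels do not say that a shared letter marks the mouse, and this was assumed. Deviations of same-letter kidney and liver libraries had a median correlation of 0.045 over 16 pairs, and kidney and lung 0.042. Of the 24 pairs of libraries within a group none held identical values.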

Additional observations from a re-analysis of the deposited data

Results flagged for a closer look

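In groups of 4, 11 of 136 tested sets of values (8.09%) had 1 library set apart from the other 3, where chance alone gives about 1 in 20. In the light, Nfil3 was higher in library B of 6% oxygen (40.1 CPM) and Herpud1 was higher in library D of 6% oxygen (838 CPM). Aacs was higher in library C of air (214 CPM), and Gapdh was high in library D of air (187 CPM) and low in the other air libraries. The summed fibroblast and mural markers were lower in library B of 6% oxygen (232 CPM). In the dark, library C of air was the high one for Kcnk5 (112 CPM) and Col1a1 (96.0246 CPM) and the low one for Ak4 (193 CPM). Arntl was higher in library D of air (45.5 CPM), Herpud1 lower in library B of air (411 CPM) and Ddc higher in library A of 6% oxygen (67.2 CPM).

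By the test of the difference itself, the oxygen response differed between the phases in 40 kidney genes. That phase difference in turn differed between kidney and liver in 34 genes and between kidney and lung in 3. Kidney minus liver was positive for Bok (2.37), Cdkn1a (2.56), Eps8l2 (1.65), which links receptors to actin, and Stat5b (1.71), a transcription factor of cytokine and growth hormone signals. It was negative for Slc16a12 (-2.53), Elovl6 (-2.76) and Aacs (-1.87). Kidney minus lung was -1.555 for Ndrg1, 2.64 for Fgf18 and -2.04 for Rbp4.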

How the results depend on the processing

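The phase difference had the same sign in all 22 alternative settings for all 40 genes, and 15 genes passed in every one (19 in every fit without 1 library, 20 with the replicate block). These settings reuse the libraries by which the 40 genes were picked, so a kept sign is no separate support. The number of genes past the threshold moved more: 88 with DESeq2, 20 with the replicate block, 496 with voom and 23 to 155 without 1 library. At ZT4-8 the response had 1433 genes with voom, 286 without libraries B and D, and 342 (without B of air) to 1017 (without C of air) without 1 library, and at ZT16-20 it had 1517 with voom. Time of day in 21% oxygen gave 219 genes with DESeq2, 969 with voom, 47 without libraries B and D, and 57 (without D of air at ZT4-8) to 372 (without C) without 1 library. In 6% oxygen it gave 145, 118 and 113 under the same settings, and 21 (without C of 6% oxygen at ZT16-20) to 94 without 1 library. Kidney against liver gave 72 with DESeq2 and 19 to 47 without 1 mouse, assumed to be the libraries of 1 letter in a group. Kidney against lung gave 16 with DESeq2, 1 with mouse as a block, 0 without the libraries that stood apart, and 1 to 6 without 1 mouse. The cause of these shifts was not tested.

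The Nr1d1 phase difference, near 0, turned to -0.15 without libraries B and D and ran from -0.17 to 0.22 without 1 library, and that of Hif1a from -0.19 to 0.086. Of 1860 values for 85 gene results, 1701 kept direction and side of the threshold, 98 no longer passed, 47 newly passed and 14 changed sign. The letters do not pair the libraries: the median correlation of same-letter deviations was -0.016 over 24 pairs, and 1 of 16 libraries correlated best with its own letter. At this depth a gene at 1 CPM rests on a few reads, as Npas2 and Ciart did in some groups.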

Other observations

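Gm11128, a predicted gene with a placeholder symbol that was picked after its values were seen, had one of the smallest p-values for the phase difference. It stood at 230.05, 319, 271 and 363 CPM in air and 122, 159, 96.96 and 131 CPM in 6% oxygen at ZT4-8, and at 129, 166, 164 and 146 CPM and 201, 216, 204 and 179.7 CPM at ZT16-20. Its phase difference was 1.63 ± 0.21 (adjusted p = 0.00043; 1.39 without libraries B and D of 21% oxygen at ZT4-8, adjusted p = 0.00192).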
